A study of Arabidopsis thaliana with 8 samples.

Results

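The salicylate and pipecolate defence genes described here are 10 Arabidopsis thaliana loci, all found by locus name among the 28496 genes of the deposited count table: *PR1* (AT2G14610), *PR2* (AT3G57260), *PR5* (AT1G75040), *ALD1* (AT2G13810), *FMO1* (AT1G19250), *ICS1* (AT1G74710), *EDS1* (AT3G48090), *PAD4* (AT3G52430), *PAD3* (AT3G26830) and *NPR1* (AT1G64280). Of these, 9 passed the filter on low counts and were tested among 20382 genes, and 1, *PR2*, was too low to be tested. The RNA came from whole seedlings, 6 days old and not stressed, grown on half-strength MS agar at 22 °C under an 8 h photoperiod. Wild-type Col-0 gave 3 libraries, Col-0 constitutively expressing the MYB factor *TT2* from the viral 35S promoter (*TT2* OE) gave 3, and the same design with *MYB5* (*MYB5* OE) gave 2. The labels do not say which transformed line, or how many lines, the libraries of each overexpressor came from. Because 35S drives expression in most cells, the contrasts concern ectopic *TT2* or *MYB5* and not the organs in which either gene is normally active.

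The libraries fall into 3 rounds by the letter codes of their titles: 1 library of each genotype in round 1 and in round 2, and 1 Col-0 and 1 *TT2* OE library in round 3. Total counts ran from 35496351 to 48428855 per library. After removal of the genotype means, libraries of 1 round correlated at 0.755 or more and libraries of other rounds at 0.260 or less across the genes tested. Removing a mean over 2 or 3 libraries lowers the correlation between rounds by itself. The rounds were also recognised from the clustering of these libraries, so the correlations describe the rounds and do not test them. *TT2* stood at 466 to 516 CPM (counts per 1e6 reads assigned to genes, after scaling of the library sizes) in *TT2* OE and at 0.316 CPM or less elsewhere, and *MYB5* at 252 and 281 CPM in *MYB5* OE and at 0.150 CPM or less elsewhere, in accord with the labels. Leaf markers (3 genes, 33327 to 41708 summed CPM) and root markers (5 genes, 82.1 to 148 summed CPM) were present in every library with none at 0. Their summed ranges overlapped between genotypes, except that both *MYB5* OE libraries lay above the 3 Col-0 libraries for the leaf markers. Within rounds, the leaf marker sum was higher than in Col-0 in every pair. Col-0 had 33327, 34678 and 35789 CPM in rounds 1, 2 and 3, and *TT2* OE 35742.5, 40801 and 37584 CPM. *MYB5* OE had 37950 and 41708 CPM in rounds 1 and 2. The root marker sum was higher too, except in *TT2* OE of round 3 (82.1 CPM against 104 CPM). The part of tissue proportions in the results was not tested. In whole seedlings, fewer expressing cells and less RNA per cell cannot be told apart.

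Salicylate is the hormone of defence against biotrophic pathogens in Arabidopsis. Isochorismate made by *ICS1* in the plastid is the source of most pathogen-induced salicylate, the lipase-like proteins *EDS1* and *PAD4* act upstream of its accumulation, and *NPR1* perceives salicylate and works with TGA transcription factors to switch on PR genes. A parallel branch makes N-hydroxypipecolate, the mobile signal of systemic acquired resistance: the aminotransferase *ALD1* starts the conversion of lysine to pipecolate, and the monooxygenase *FMO1* hydroxylates it. *PR1*, *PR2* and *PR5* encode secreted antimicrobial proteins that are read as outputs of the pathway, and *PAD3* is the cytochrome P450 that completes the phytoalexin camalexin.

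The sequence before each gene's start is shown for 2 members: *ALD1*, which passed the test in *TT2* OE, and *PAD4*, which did not and whose sequence holds the letters of the site II element studied with these factors. Each run holds the 250 bases upstream of the annotated start (RefSeq annotation of TAIR10.1), 5′ to 3′ on the strand of the gene, with motif matches in capitals.
ALD1, chr2:5768167-5768416, plus strand: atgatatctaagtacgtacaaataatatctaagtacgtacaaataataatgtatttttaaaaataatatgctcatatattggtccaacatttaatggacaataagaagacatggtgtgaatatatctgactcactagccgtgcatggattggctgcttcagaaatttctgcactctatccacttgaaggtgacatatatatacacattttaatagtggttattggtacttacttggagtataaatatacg
PAD4, chr3:19430845-19431094, plus strand: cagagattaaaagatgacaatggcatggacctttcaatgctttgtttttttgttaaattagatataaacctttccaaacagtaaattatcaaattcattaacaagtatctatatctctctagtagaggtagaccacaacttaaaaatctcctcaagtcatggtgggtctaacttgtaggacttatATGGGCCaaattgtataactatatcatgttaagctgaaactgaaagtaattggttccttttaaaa
The letters searched on both strands were TTGAC (the core of the W-box that WRKY factors bind), TGACG (the TGA factor element) and the site II element, which is TGGGCC or TGGGCT directly after an A or a T. The W-box core and the TGA element can overlap, as in TTGACG. *PR2*, *PR5*, *ALD1*, *FMO1*, *ICS1*, *EDS1*, *PAD4*, *PAD3* and *NPR1* were searched. The W-box core was found in *PR5*, with its most upstream base at position -165 from the start, and in *EDS1* at -96, against 45.2% of 20303 promoters of the same length. TGACG was found in none of these genes and in 19.3% of all promoters. The site II element was found in *PAD4* at -65, and in 19.8% of all promoters. A match is a description of these letters and says nothing of binding.

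Levels were compared between genes as CPM per kilobase of exon, since a longer transcript collects more reads. In Col-0 the signalling genes were the most abundant: *NPR1* at 12.7 ± 2.06 CPM per kilobase, *ICS1* at 10.5 ± 2.57, *EDS1* at 9.25 ± 1.84 and *PAD4* at 3.28 ± 0.537 (SD, n = 3). *PR5* followed at 0.867 ± 0.835 CPM per kilobase, *ALD1* at 0.821 ± 0.215, *PAD3* at 0.428 ± 0.208, *PR1* at 0.366 ± 0.295, *FMO1* at 0.239 ± 0.141 and *PR2* at 0.0295 ± 0.0232 (SD, n = 3). The 1 SD ranges of neighbours in this order overlapped except between *EDS1* and *PAD4*, between *PAD4* and *PR5*, and between *FMO1* and *PR2*. The effector genes and both pipecolate genes were thus low in these unstressed seedlings, with *PR2* and, in *TT2* OE, *PR1* near the floor of 3 counts. Their counts, 0 to 121 per library, set the precision of what follows. All counting intervals below are exact 95% intervals that cover counting error only.

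**Figure D1:**
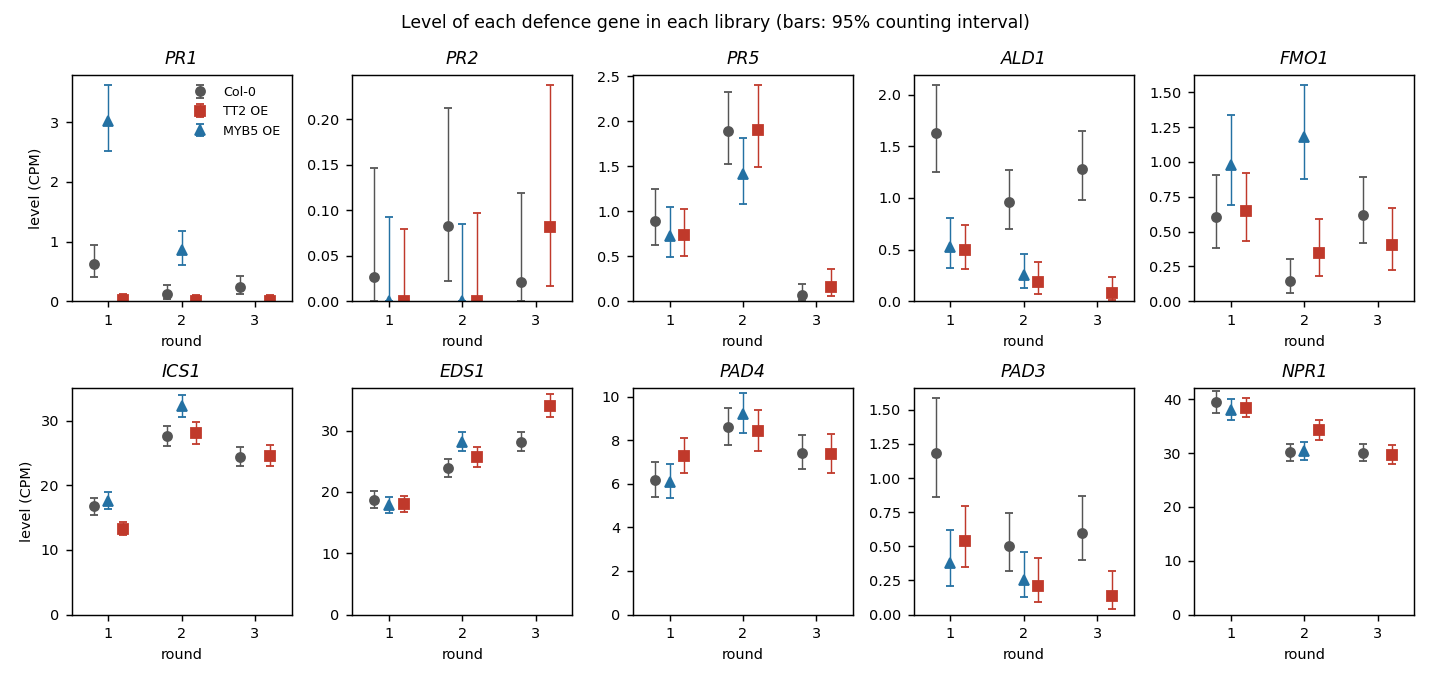
Level of each of the 10 genes in each of the 8 libraries, in CPM (vertical axis, from 0, scaled per gene), by round (horizontal axis); circles are Col-0, triangles *MYB5* OE and squares *TT2* OE, and bars are exact 95% counting intervals. *PR1* lies at 0 or 1 count in every *TT2* OE library, and *ALD1* is lower in both overexpressors than in Col-0 of the same round.

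In *TT2* OE against Col-0, *PR1* and *ALD1* fell and no member rose, and the 4 signalling genes *ICS1*, *EDS1*, *PAD4* and *NPR1* differed little. By edgeR's quasi-likelihood test with genotype and round in the model (Benjamini-Hochberg adjusted p under 0.05 over all genes tested), 2 of the 9 tested members were lower, against 0.711% of all genes, and 0 of 9 were higher, against 0.697% of all genes. The members were chosen with earlier results of these data known, so such shares are no test of the set. At an unadjusted p under 0.05, 3 of 9 were lower, the third being *PAD3*, and 0 were higher, against 5.91% and 6.85% of all genes. DESeq2 with the same terms also called 2 lower and 0 higher, against 194 lower and 247 higher among all genes tested. The median log2 ratio of the 9 tested members was 0.02, beside 0.00098 over all genes tested. The edgeR calls rest on the round term: with genotype alone in the model, edgeR called 0 members in any of the 3 comparisons, while DESeq2 with genotype alone called *PR1* in *TT2* OE against *MYB5* OE (adjusted p = 0.000293) and no member in *TT2* OE against Col-0. Without the round term edgeR called 1 gene higher and 1 lower among all genes in *TT2* OE against Col-0 (130 and 177 at an unadjusted p under 0.05). The common dispersion was 0.0107 with the round term and 0.130 without it.

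In *MYB5* OE against Col-0, *PR1* and *FMO1* had higher values and *ALD1* and *PAD3* lower values in both rounds, but none passed the test. edgeR called 0 of the 9 tested members in either direction, against 0.0736% of all genes higher and 0.0932% lower. At an unadjusted p under 0.05, 2 members were higher (*PR1* and *FMO1*, against 3.89% of all genes) and 2 lower (*ALD1* and *PAD3*, against 4.37%). DESeq2 with genotype and round called 1 member higher, *PR1*, and 0 lower, against 61 higher and 86 lower among all genes tested. By edgeR's likelihood ratio test *PR1* was called higher and *ALD1* lower, against 112 higher and 185 lower among all genes tested. The median log2 ratio of the members was 0.02, beside -0.003 over all genes. In *TT2* OE against *MYB5* OE, 1 of 9 members was lower, *PR1*, against 0.108% of all genes, and 0 were higher, against 0.0638%. At an unadjusted p under 0.05 the counts were 3 lower and 0 higher, against 1.77% and 2.14% of all genes. DESeq2 called 1 lower and 0 higher there, against 31 lower and 33 higher among all genes tested.

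Without any model, 3 of 9 tested members were lower in *TT2* OE than in Col-0 of the same round in all 3 rounds (*PR1*, *ALD1* and *PAD3*), against 17.3% of all genes, and 0 were higher in all 3, against 17.6%. In *MYB5* OE, 3 of 9 were lower in both rounds (*PR5*, *ALD1* and *PAD3*), against 28.8% of all genes, and 3 were higher in both (*PR1*, *FMO1* and *ICS1*), against 26.9%. In *TT2* OE against *MYB5* OE, 4 were lower in both rounds (*PR1*, *ALD1*, *FMO1* and *ICS1*), against 23.4% of all genes, and 2 were higher (*PR5* and *NPR1*), against 24.9%. With rounds set aside, every *TT2* OE library lay below every Col-0 library for 2 members, *PR1* and *ALD1* (2.71% of all genes), and above for 0 (2.02%). Every *MYB5* OE library lay below every Col-0 library for 2, *ALD1* and *PAD3* (5.07%), and above for 2, *PR1* and *FMO1* (3.90%). Every *TT2* OE library lay below both *MYB5* OE libraries for 2, *PR1* and *FMO1* (3.39%), and above for 0 (4.47%). The comparisons with Col-0 share the same 3 Col-0 libraries.

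**Figure D2:**
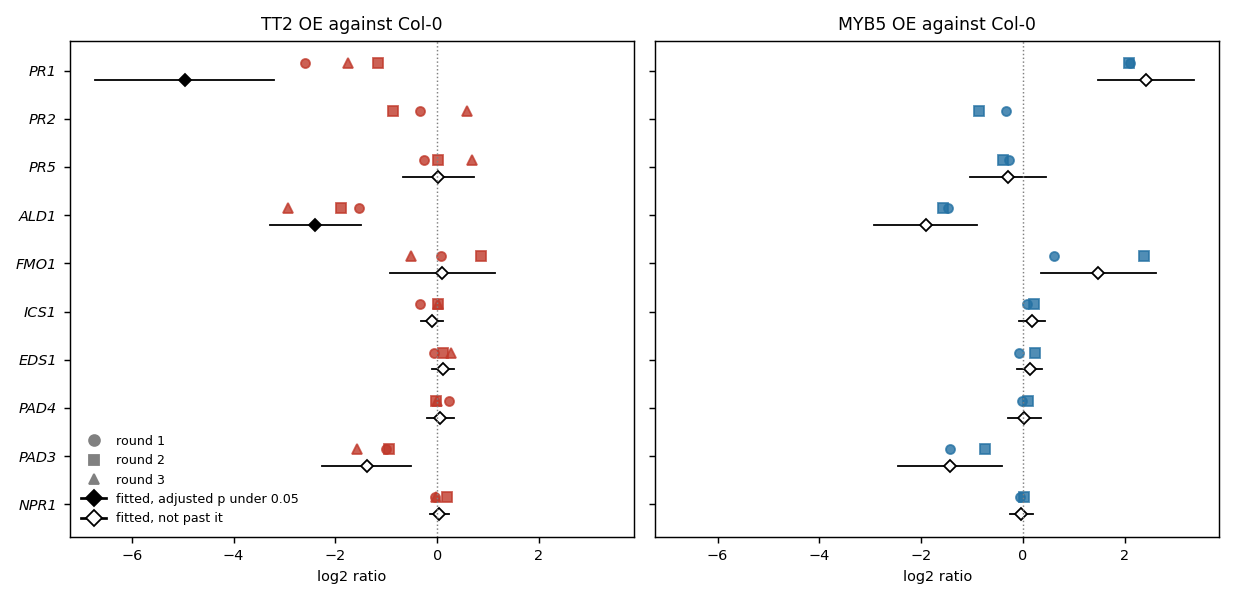
Log2 ratio of each gene in *TT2* OE (left) and *MYB5* OE (right) against Col-0. Coloured symbols are single rounds, computed as log2 of CPM with 0.1 CPM added, which pulls low genes such as *PR1* towards 0; diamonds are the fitted edgeR log2 ratios with approximate 95% intervals, filled where the adjusted p was under 0.05. *ALD1* lies below 0 in all 5 pairs, and *PR1* lies on opposite sides of 0 in the 2 panels.

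*PR1*, a secreted sterol-binding protein and the standard marker of salicylate responses, differed most between the genotypes. It is a gene of 1 exon of 902 bases on the minus strand of chromosome 2 (TAIR10.1, 6241640 to 6242541). Col-0 had 24, 6 and 11 counts in rounds 1, 2 and 3 (0.631, 0.125 and 0.235 CPM). *TT2* OE had 1, 0 and 0 counts in those rounds, where a count of 0 allows up to 0.0794 CPM in round 2 and 0.0813 CPM in round 3 (3 counts per library). *MYB5* OE had 121 and 37 counts in rounds 1 and 2 (3.03 and 0.857 CPM). All 3 *TT2* OE libraries were thus the lowest, both *MYB5* OE libraries the highest, and the groups did not overlap.

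Summed over the 3 rounds, 1 *PR1* count in *TT2* OE stood against 41 in Col-0, a level 37.4-fold lower with a counting interval of 6.34 to 1512. By round, *TT2* OE was 29.3-fold lower in round 1 (interval 4.78 to 1207). With its 0 counts set to a floor of 3 counts per library, it was 1.57-fold lower in round 2 and 2.89-fold lower in round 3. These 2 values leave out the counting error of Col-0 and are no lower bounds. The 6 Col-0 counts of round 2 left the ratio of that round open to no difference, with an interval reaching 1.08. The fitted log2 ratio was -4.96 ± 0.81 (SE; edgeR adjusted p = 0.0112), a value that depends on the prior count where counts are 0. This call was lost without the Col-0 library of round 1 (adjusted p = 0.0904), the *TT2* OE library of round 1 (0.0891) or that of round 2 (0.0514), and with genotype alone (adjusted p = 1). With *TT2* OE and Col-0 alone in the fit, *PR1* was below the count filter and was not tested. The filter follows the smallest genotype group, which is *MYB5* OE when all 3 genotypes are fitted.

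In *MYB5* OE, *PR1* was 4.80-fold the Col-0 level in round 1 (counting interval 3.08 to 7.78) and 6.87-fold in round 2 (2.88 to 19.9). The fitted log2 ratio was 2.42 ± 0.43 (SE), with an edgeR unadjusted p of 0.000112 and an adjusted p of 0.0569, which missed the threshold. It passed under other settings, with adjusted p = 0.0482 under relative log expression factors, 0.0201 under DESeq2 with genotype and round, and 0.0072 with the Col-0 and *MYB5* OE libraries alone. Between the overexpressors *PR1* was 141-fold lower in *TT2* OE in round 1 (1 against 121 counts, interval 24.8 to 5605). With *TT2* OE set to the floor of 3 counts, it was 10.8-fold lower in round 2. The fitted log2 ratio of *TT2* OE against *MYB5* OE was -7.38 ± 0.69 (SE; edgeR adjusted p = 0.000581), and it passed on leaving out any 1 library, but not with genotype alone (adjusted p = 0.638). The *MYB5* OE libraries differed between themselves as well, with *PR1* in round 2 at 0.283 of its round 1 level.

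*PR2*, a beta-1,3-glucanase, and *PR5*, a thaumatin-like protein, gave no call. In rounds 1, 2 and 3, Col-0 gave 1, 4 and 1 *PR2* counts and *TT2* OE gave 0, 0 and 3, with 0 in both *MYB5* OE libraries, so that no difference could be detected at this depth. Over 3 rounds *TT2* OE had 0.548 of the Col-0 level of *PR2* with a counting interval of 0.0887 to 2.57. *PR5* had 34, 91 and 3 counts in Col-0 (0.894, 1.89 and 0.0641 CPM), 34, 72 and 6 in *TT2* OE (0.732, 1.90 and 0.163 CPM), and 29 and 61 in *MYB5* OE (0.726 and 1.41 CPM). The genotypes overlapped throughout, while both libraries of round 3 were lower than all others. The fitted log2 ratio of *PR5* was 0.02 in *TT2* OE (95% interval -0.68 to 0.72; adjusted p = 0.985) and -0.30 in *MYB5* OE (-1.05 to 0.45; adjusted p = 0.872).

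*ALD1*, the aminotransferase at the start of pipecolate synthesis, was lower in both overexpressors in every round. Col-0 had 62, 46 and 60 counts (1.63, 0.956 and 1.28 CPM). *TT2* OE had 23, 7 and 3 counts (0.495, 0.185 and 0.0813 CPM). *MYB5* OE had 21 and 11 counts (0.526 and 0.255 CPM). The lowest Col-0 library stood above the highest library of either overexpressor, and the overexpressor libraries overlapped each other.

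Summed over rounds, *ALD1* in *TT2* OE was 4.64-fold lower than in Col-0 (counting interval 3.18 to 6.96), and in *MYB5* OE 3.26-fold lower (2.18 to 5.00). The fitted log2 ratio in *TT2* OE was -2.40 ± 0.41 (SE; edgeR adjusted p = 0.0149). This call was lost without the Col-0 library of round 2 (adjusted p = 0.0756), the *TT2* OE library of round 2 (0.0989) or the Col-0 library of round 3 (0.0566), and with genotype alone (adjusted p = 1). In *MYB5* OE the log2 ratio was -1.91 ± 0.47 (SE; unadjusted p = 0.00143, adjusted p = 0.153). *TT2* OE against *MYB5* OE gave -0.49 (95% interval -1.63 to 0.65; adjusted p = 1), so the overexpressors were not shown to differ in *ALD1*. Without the round 2 *TT2* OE library no member at all was called in *TT2* OE against Col-0.

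*FMO1*, which acts after *ALD1* and makes N-hydroxypipecolate, passed the test in neither overexpressor. Col-0 had 23, 7 and 29 counts (0.605, 0.145 and 0.620 CPM), *TT2* OE had 30, 13 and 15 (0.645, 0.344 and 0.406 CPM), and *MYB5* OE had 39 and 51 (0.976 and 1.18 CPM). Both *MYB5* OE libraries were the highest of all, and Col-0 and *TT2* OE overlapped. The log2 ratio in *MYB5* OE was 1.48 ± 0.52 (SE; unadjusted p = 0.0141, adjusted p = 0.422). The ratio to Col-0 was 1.61 in round 1 and 8.12 in round 2, the latter set against 7 Col-0 counts. In *TT2* OE the log2 ratio was 0.10 (95% interval -0.92 to 1.13; adjusted p = 0.952), and its sign varied, being -0.36 without the Col-0 library of round 2.

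*PAD3*, the last enzyme of camalexin synthesis, had values below Col-0 in all 5 pairs of libraries. Col-0 had 45, 24 and 28 counts (1.18, 0.499 and 0.598 CPM), *TT2* OE had 25, 8 and 5 (0.538, 0.212 and 0.135 CPM), and *MYB5* OE had 15 and 11 (0.375 and 0.255 CPM). The *TT2* OE library of round 1 exceeded the Col-0 library of round 2, so these groups overlapped once rounds were set aside. The log2 ratio was -1.39 ± 0.40 (SE) in *TT2* OE (unadjusted p = 0.00469, adjusted p = 0.139) and -1.44 ± 0.47 in *MYB5* OE (unadjusted p = 0.0098, adjusted p = 0.376). Neither passed the test, although edgeR's likelihood ratio test called *PAD3* in *TT2* OE (adjusted p = 0.00832).

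The 4 signalling genes were measured on 235 to 1784 counts per library, and their ratios to Col-0 of the same round lay between 0.792 and 1.21 in all 20 gene and library pairs. *ICS1* had 637, 1330 and 1144 counts in Col-0 (16.8, 27.6 and 24.5 CPM), 617, 1062 and 908 in *TT2* OE (13.3, 28.1 and 24.6 CPM), and 702 and 1394 in *MYB5* OE (17.6 and 32.3 CPM). The lowest ratio, 0.792, was that of *ICS1* in *TT2* OE of round 1, and the other rounds gave 1.02 and 1.01. *EDS1* ran from 18.8 to 28.1 CPM in Col-0, from 18.01 to 34.1 CPM in *TT2* OE and was 17.8 and 28.2 CPM in *MYB5* OE. *PAD4* ran from 6.18 to 8.60 CPM in Col-0, from 7.27 to 8.41 CPM in *TT2* OE and was 6.08 and 9.22 CPM in *MYB5* OE. *NPR1* ran from 30.0 to 39.4 CPM in Col-0, from 29.7 to 38.4 CPM in *TT2* OE and was 30.3 and 38.0 CPM in *MYB5* OE. All 4 genes overlapped between the genotypes.

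In *TT2* OE against Col-0, the 95% intervals of the fitted log2 ratios were -0.31 to 0.12 for *ICS1*, -0.11 to 0.33 for *EDS1*, -0.21 to 0.34 for *PAD4* and -0.15 to 0.23 for *NPR1*, with edgeR adjusted p from 0.706 for *EDS1* to 0.888 for *NPR1*. In *MYB5* OE they were -0.08 to 0.42 for *ICS1*, -0.12 to 0.38 for *EDS1*, -0.30 to 0.35 for *PAD4* and -0.26 to 0.19 for *NPR1*. These intervals leave out a 2-fold difference for each of the 4 genes, which the intervals of *FMO1* and *PAD3* do not. *NPR1* overlaps AT1G64270 and AT1G08667 on the other strand, and *EDS1* has a near-identical neighbouring copy, AT3G48080. The library kit keeps strand, but how the counting used strand or shared reads is not given in the sources used here.

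**Figure D3:**
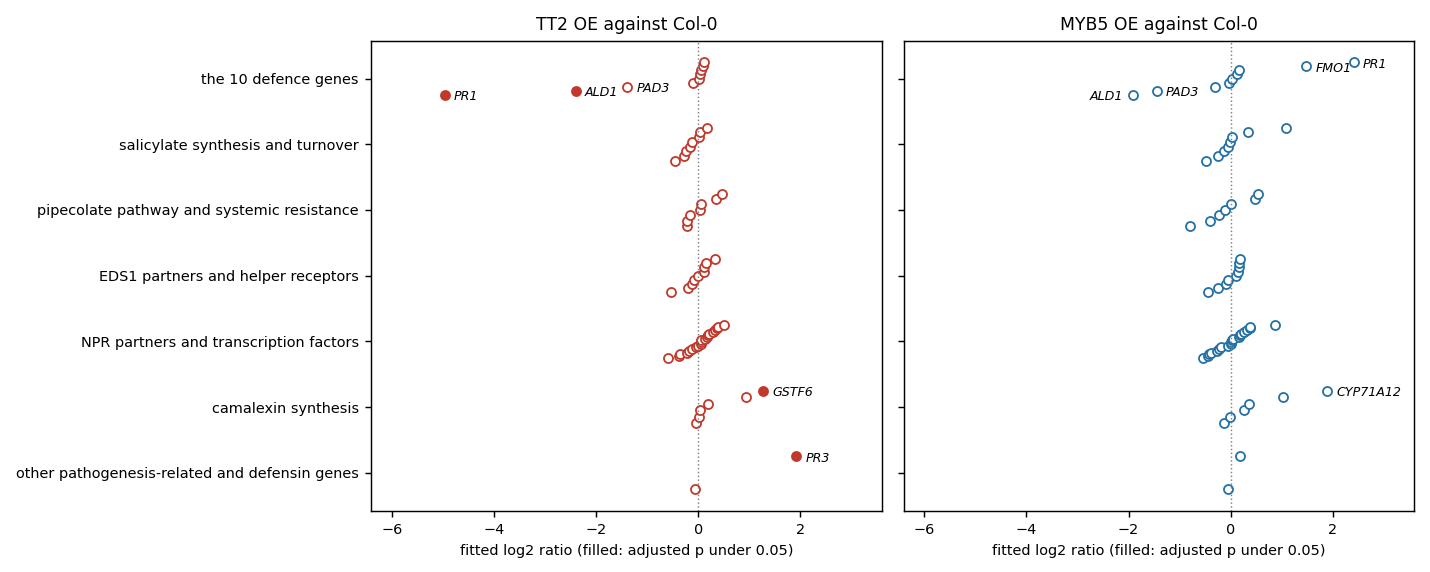
Fitted log2 ratio against Col-0 of the tested genes of each list, in *TT2* OE (left) and *MYB5* OE (right); each point is 1 gene, filled where the edgeR adjusted p was under 0.05. Besides *PR1* and *ALD1*, *GSTF6* and *PR3* are filled in *TT2* OE, both to the right of 0, and none is filled in *MYB5* OE.

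The other genes of these pathways, taken from lists of known components, gave few calls. Of 9 further salicylate synthesis and turnover genes, 8 were tested and 0 called in *TT2* OE (0 higher and 1 lower at an unadjusted p under 0.05; 0 by DESeq2 and the likelihood ratio test). In *MYB5* OE 0 were called too (1 higher and 1 lower unadjusted; 0 by the other tools). *EPS1*, which releases salicylate from isochorismoyl-glutamate, had a log2 ratio of -0.46 in *TT2* OE (adjusted p = 0.303), and the plastid enzyme *ICS2* had 0.34 in *MYB5* OE (adjusted p = 0.378). *DMR6*, a salicylate hydroxylase, had 0.16 in *TT2* OE, and *UGT74F2*, a salicylate glucosyltransferase, had -0.24 in *MYB5* OE.

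Of 7 further pipecolate and systemic resistance genes, all 7 were tested and 0 called in either overexpressor (2 higher and 0 lower unadjusted in *TT2* OE, 2 and 2 in *MYB5* OE, and 0 by DESeq2 and the likelihood ratio test). *DIR1*, a lipid transfer protein of systemic resistance, had log2 ratios of 0.34 in *TT2* OE (adjusted p = 0.227) and 0.47 in *MYB5* OE (0.274). *UGT76B1*, which glucosylates N-hydroxypipecolate, had -0.15 and -0.40. The locus AT5G03350 had 0.47 and 0.54, with adjusted p = 0.324 and 0.528. The fall of *ALD1* was thus the only call among the pipecolate genes in *TT2* OE.

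Of 9 *EDS1* partners and helper receptors, all were tested and 0 called (1 higher and 1 lower unadjusted in *TT2* OE, 0 and 1 in *MYB5* OE, and 0 by the other tools). The helper receptor *ADR1* had a log2 ratio of 0.32 in *TT2* OE (adjusted p = 0.168), and the loci AT3G48080 and AT5G66910 had -0.53 and -0.13. Of 23 NPR partners and transcription factors, 20 were tested and 0 called by edgeR's quasi-likelihood test or DESeq2 (2 higher and 3 lower unadjusted in *TT2* OE, 3 and 3 in *MYB5* OE). By the likelihood ratio test 1 gene each way passed in *TT2* OE, and 1 gene, lower, in *MYB5* OE. *TGA2* and *TGA5*, bZIP partners of *NPR1*, had log2 ratios of -0.36 and -0.38 in *TT2* OE (adjusted p = 0.136 and 0.0822) and of -0.54 and -0.41 in *MYB5* OE (0.125 and 0.213). These 2 genes are neighbours on chromosome 5 (2150840 to 2154586 and 2154746 to 2157719). Whether their values are independent of each other, or of their position, was not tested. *WRKY18*, a transcription factor induced by salicylate, had 0.51 in *TT2* OE (adjusted p = 0.125) and 0.38 in *MYB5* OE (0.582).

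Of 7 further camalexin synthesis genes, 6 were tested, and 1 rose in *TT2* OE (2 higher unadjusted; 1 by DESeq2 and 1 by the likelihood ratio test). *GSTF6*, a glutathione transferase of the pathway, had 14.4, 7.71 and 9.62 CPM in Col-0, 36.7, 25.8 and 15.98 CPM in *TT2* OE, and 27.7 and 20.3 CPM in *MYB5* OE. Every library of both overexpressors exceeded every Col-0 library. Its log2 ratio was 1.28 ± 0.15 in *TT2* OE (SE; edgeR adjusted p = 0.00183, and 1 with genotype alone) and 1.02 ± 0.18 in *MYB5* OE (adjusted p = 0.0531), and reads may be shared with near-identical genes of its family. In *MYB5* OE 0 camalexin genes were called (3 higher and 0 lower unadjusted, and 2 higher by DESeq2 and by the likelihood ratio test). *CYP71A12*, a cytochrome P450 of indole metabolism, had 0.342, 0.478 and 1.197 CPM in Col-0, 1.27, 1.32 and 0.975 CPM in *TT2* OE, and 1.48 and 2.87 CPM in *MYB5* OE, with log2 ratios of 0.93 (adjusted p = 0.348) and 1.90 (0.142). *PAD3*, whose values were lower, and *GSTF6* thus stood on opposite sides of Col-0 within the same pathway.

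Of 7 other pathogenesis-related and defensin genes, 2 were tested, and 1 rose in *TT2* OE (1 higher and 0 lower unadjusted, and 1 higher by both other tools) and 0 in *MYB5* OE (0 unadjusted and 0 by the other tools). *PR3*, a basic chitinase usually placed with the jasmonate and ethylene responses, had 18.2, 15.7 and 19.3 CPM in Col-0, 69.0, 57.8 and 75.0 CPM in *TT2* OE, and 22.9 and 15.8 CPM in *MYB5* OE. All 3 *TT2* OE libraries stood above all others, and *MYB5* OE overlapped Col-0. Of all genes, 2.02% had every *TT2* OE library above every Col-0 library, and 4.47% above both *MYB5* OE libraries. The log2 ratio was 1.92 ± 0.10 in *TT2* OE (SE; edgeR adjusted p = 5.37e-07, and 0.0859 with genotype alone), 0.18 ± 0.11 in *MYB5* OE (adjusted p = 0.722), and 1.74 ± 0.11 in *TT2* OE against *MYB5* OE (adjusted p = 1.08e-05, and 0.302 with genotype alone). *PR4*, a chitin-binding protein, had -0.07 and -0.06. *PR1* and *PR3* were therefore called in opposite directions in *TT2* OE.

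Several of these genes varied more between rounds than between genotypes, which is given as a description with no test since the rounds were recognised from the same data. *ICS1* in rounds 2 and 3 was 1.65 and 1.46 times its round 1 level in Col-0, 2.12 and 1.85 times in *TT2* OE, and in round 2 was 1.84 times in *MYB5* OE. *EDS1* was also lowest in round 1, with 1.27 and 1.50 times in Col-0 and 1.43 and 1.89 times in *TT2* OE. *NPR1* went the other way, at 0.765 and 0.761 of round 1 in Col-0. *PR5* in round 3 stood at 0.0717 of round 1 in Col-0 and 0.222 in *TT2* OE.

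Outside the members, genes picked for how much they varied showed patterns of their own. *EDS5*, the exporter of the salicylate precursor, was 3.08 to 3.73 CPM in round 1, 6.72 to 8.00 CPM in round 2 and 4.10 to 4.33 CPM in round 3. *EPS1* was 0.990 to 1.32 CPM in round 1 and 3.17 to 5.24 CPM in round 2. *SARD1*, a transcription factor that activates *ICS1*, was 0.776 to 0.973 CPM in round 1, 0.232 to 0.397 CPM in round 2 and 0.0641 to 0.0813 CPM in round 3. The morning clock gene *LHY* moved with the rounds as well, at 1.03 to 1.66 CPM in round 1, 309 to 337 CPM in round 2 and 984 to 1057 CPM in round 3, and the evening gene *TOC1* was 205 to 252 CPM in round 1 and 18.7 to 23.9 CPM in the others. The hour of harvest is not given in the sources used here, and its part in the round values was not tested.

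**Figure D4:**
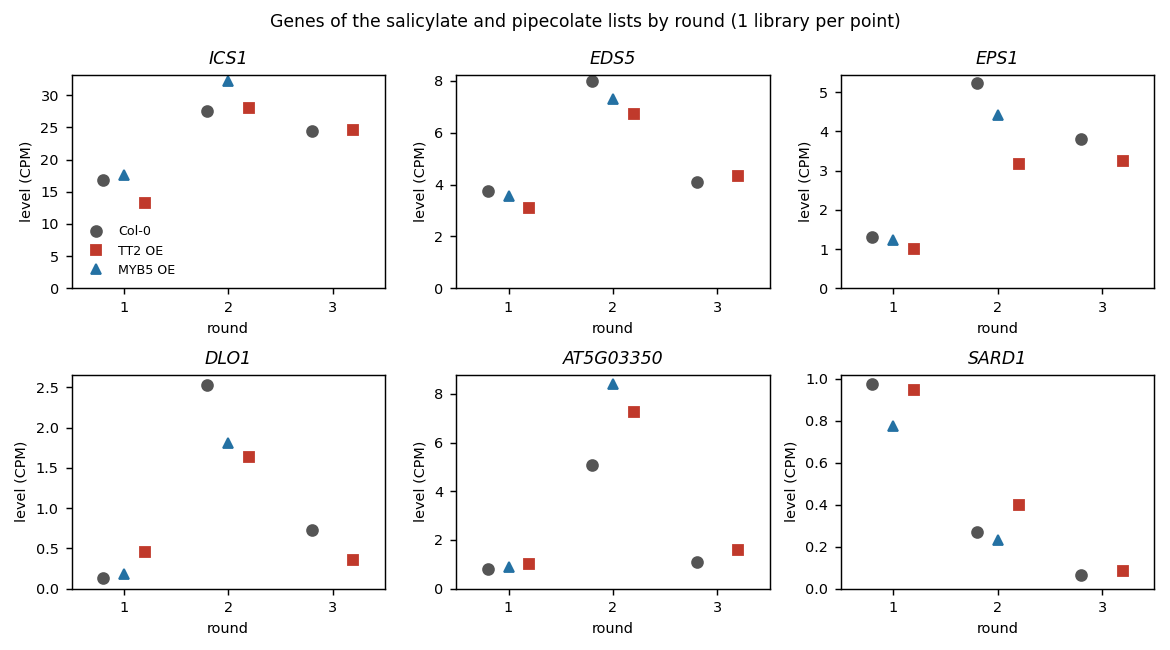
Level in CPM (vertical axis, from 0) of *ICS1*, *EDS5*, *EPS1*, *DLO1*, AT5G03350 and *SARD1* by round (horizontal axis); each point is 1 library, with circles for Col-0, triangles for *MYB5* OE and squares for *TT2* OE. The rounds stand apart for *ICS1*, with 13.3 to 17.6 CPM in round 1 and 24.5 to 32.3 CPM in the others, while the genotypes of a round lie close together.

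As a further description, the 3 genes whose log2 levels over the 8 libraries were most like those of 4 members were sought among 18192 genes with a mean of at least 1 CPM. The libraries share rounds and genotypes, so the values carry no p. *PR1* was most like AT5G61200 (Pearson r = 0.924), AT1G74010 (0.915) and AT5G64110 (0.899), the last of which had 52.2, 48.6 and 59.0 CPM in Col-0, 48.9, 35.7 and 38.5 CPM in *TT2* OE and 98.5 and 56.3 CPM in *MYB5* OE. *ALD1* was most like *BFN1* (r = 0.963), a nuclease of senescing tissue that had 5.84, 4.97 and 5.56 CPM in Col-0, 4.13, 2.94 and 3.17 CPM in *TT2* OE and 4.56 and 3.29 CPM in *MYB5* OE, followed by AT5G42210 (0.956) and *FIM5* (0.944). *FMO1* was most like AT2G19400 (0.932), AT2G20210 (0.929) and AT5G49870 (0.905). *ICS1* was most like AT3G21330 (0.999), *SHY2* (0.992) and *EDA16* (0.990), a likeness that followed the rounds: AT3G21330 had 3.33 to 6.38 CPM in round 1 and 13.6 to 24.1 CPM in the others.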

How the data were processed

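RNA-seq was measured in 8 libraries of whole seedlings. The authors made directional libraries, sequenced them on an Illumina instrument and mapped and counted reads with CLC Genomics Workbench, and the labels name the TAIR10 build; the deposited values used here are total read counts per gene, not normalized. The 24 normalized columns were not used, and 4 columns of 1 library that no label matches were left out.

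Counts were scaled by TMM, filtered by filterByExpr per genotype and tested with edgeR 4.0.16 (R 4.3.3) on genotype and round, with Benjamini-Hochberg adjustment over 20382 genes and a threshold of 0.05. Libraries differed by more than sampling noise, and 0 pairs were identical. The paper describes 3 independent biological replicates. The labels give no replicate numbers, do not state separate cultures and name 2 *MYB5* OE libraries, so p-values measure the spread between these samples. Libraries were numbered within a genotype in round order. Rounds follow the title codes and the clustering of libraries; the round term was used knowing that it yields more calls. The members and lists were chosen with earlier results of these data known, and so was the rule for named genes: all members, list genes called in any comparison and the 2 of each list with the smallest p against Col-0. Genes shown for rounds were chosen after seeing their values.

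Standard errors are the log2 ratio over the square root of F. Counting intervals are exact Poisson or conditional binomial. Single-round log2 ratios used 0.1 CPM added. Total counts of 35496351 to 48428855 put the floor of 3 counts at 0.0623 to 0.0813 CPM. Tried besides were DESeq2 1.42.0, edgeR's likelihood ratio test, scaling by relative log expression, no filter, no round term, fewer genotypes or rounds, 1 CPM added, and leaving out each library. Scripts were tested on simulated data. The upstream sequence of 1 member is not reported here.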

Additional observations from a re-analysis of the deposited data

Results flagged for a closer look

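*PR1* and *PR3* differed between the overexpressors by a test of the difference itself. The log2 ratio of *PR1* in *TT2* OE against *MYB5* OE was -7.38 (1 count in the *TT2* OE libraries of rounds 1 and 2 against 158 in *MYB5* OE; edgeR adjusted p = 0.000581), lower in 2 of 2 rounds. That of *PR3* was 1.74 (edgeR adjusted p = 1.08e-05), higher in 2 of 2 rounds. With genotype alone in the edgeR model the adjusted p were 0.638 for *PR1* and 0.302 for *PR3*.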

How the results depend on the processing

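Of 10 members, the calls of *PR1* and *ALD1* in *TT2* OE against Col-0 were those most open to the processing. The number of members called there was 2 with genotype and round, 0 with genotype alone (no replicate block) in edgeR and in DESeq2, 1 with the 2 genotypes alone in the fit (*ALD1*; *PR1* was then below the count filter), and 0 to 2 on leaving out 1 library. In *MYB5* OE against Col-0 it was 0, and became 1 (*PR1*) under relative log expression factors, DESeq2 with genotype and round, no filter on low counts, the 2 genotypes alone, and rounds 1 and 2 alone, and 2 (*PR1* and *ALD1*) under the likelihood ratio test; leaving out 1 library gave 0 to 1. In *TT2* OE against *MYB5* OE it was 1 throughout, except 0 with genotype alone in edgeR; leaving out 1 library gave 1 in each case. The likelihood ratio test called 3 members lower in *TT2* OE against Col-0, against 368 genes lower among all genes tested. The log2 ratio of *PR1* in *TT2* OE against Col-0 was -4.88 and of *ALD1* -2.30 with genotype alone, where neither was called. *TT2* OE and Col-0 have 1 library each in every round, so leaving out the round term could move these ratios little. The common dispersion was 0.130 with genotype alone, against 0.0107 with the round term. Leaving out 1 library moved *PR1* in that comparison between -6.01 and -4.73 and *ALD1* between -2.98 and -1.96. With 1 CPM added, the *PR1* log2 ratio of *TT2* OE of round 1 shrank to -0.68, since the gene is near the floor. Depth limits *PR2* and, in *TT2* OE, *PR1*. No call reversed its direction. The replicate numbers are not in the labels, so the round term is the only pairing tried.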
